A study of Mus musculus with 96 samples.

Results

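The hypoxia-inducible factor (HIF) pathway was followed in single EL4 cells, a mouse T cell lymphoma line of C57BL/6 origin, through 10 genes chosen by symbol from the 24057 genes of the deposited expression table. They were Hif1a, the prolyl hydroxylases Egln1 and Egln3, the collagen prolyl hydroxylase subunits P4ha1 and P4ha2, and the HIF targets Bnip3, Bnip3l, Ankrd37, Kdm3a and Vegfa. All 10 had a row in the table, and all 10 were among the 11980 genes that passed the filter on low values, a log2(TPM + 1) above 1 in at least 2 cells. The cells had been infected with retroviral particles carrying a short hairpin RNA against luciferase (shLuc, labelled WT) or against Ctcf (shCTCF, labelled CTCF knockdown and written CTCFKD here), so that control cells carried a vector and a hairpin too. GFP+ cells were sorted, and each of 4 cultures gave 24 sequenced cells, WT1 and CTCFKD1 of an initial experiment and WT2 and CTCFKD2 of a second knockdown, each on its own Fluidigm C1 chip. Culture, chip and, between the knockdown cultures, hairpin cannot be told apart, and the oxygen level of the cultures is not given in the sources used here.

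In cells with enough oxygen, the EGLN prolyl hydroxylases mark HIF alpha subunits, which the VHL ubiquitin ligase then sends to the proteasome. When oxygen or the iron and oxoglutarate cofactors run short, HIF alpha persists, pairs with ARNT and binds DNA at sites with the core ACGTG or GCGTG, where it raises genes for glycolysis, mitophagy, collagen hydroxylation and angiogenesis. Egln1, Egln3, P4ha1, Bnip3, Ankrd37, Kdm3a and Vegfa are textbook HIF targets, so that the hydroxylases which turn HIF off are themselves raised by it, and the amount of Hif1a mRNA says little about the amount of HIF protein.

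After 1 WT2 cell with 81 detected genes was left out, 95 cells remained, 24 in WT1, 23 in WT2, 24 in CTCFKD1 and 24 in CTCFKD2. A cell held 41591 to 405404 reads, and the median cell of CTCFKD2 held 131098 reads against 230477 to 247586 in the other cultures. The median cell of the CTCFKD cultures nevertheless had more genes detected, 5656 to 6172.5 against 4635 to 4771. All 8 T cell markers looked up were above 0 in every culture, with a summed level of 7905 TPM in WT1, 8340 in WT2, 5822 in CTCFKD1 and 5918 in CTCFKD2. This sum was lower in both CTCFKD cultures, and its part in the results below was not tested. The summed level of the B cell, myeloid, erythroid and fibroblast markers was between 0 and 4.13 TPM. Ctcf itself had a mean of 60.3 TPM in WT1, 37.1 in WT2, 15.96 in CTCFKD1 and 44.9 in CTCFKD2. It was thus at 26.5% of control in the initial experiment and at 121% in the second. In the sequenced cells, the mean Ctcf mRNA of the culture labelled CTCFKD2 was therefore not below that of WT2. The spread was wide, with an SD over cells of 76.8 TPM in WT1, 45.5 in WT2, 27.4 in CTCFKD1 and 50.0 in CTCFKD2. The differences of the 10 genes in level are therefore also given by experiment or as the mean of every culture. The paper reports that CTCF was reduced with both hairpins, in mRNA by RT-qPCR and in protein by Western blot. Those assays are not analysed here.

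To show where the core motif lies in the genes that the results turn on, 6 stretches of promoter are printed, from RefSeq on GRCm38.p6. Of the 10 genes, 9 had an entry in the promoter table. Matches to ACGTG or GCGTG on either strand are in capitals (CACGT and CACGC are the same motifs read on the opposite strand, and matches may overlap), and positions count back from the RefSeq transcription start.
Hif1a: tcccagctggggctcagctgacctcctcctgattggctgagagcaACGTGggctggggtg
Egln1: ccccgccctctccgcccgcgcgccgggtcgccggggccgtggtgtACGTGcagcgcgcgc
Egln3: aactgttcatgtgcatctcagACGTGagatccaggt
P4ha1: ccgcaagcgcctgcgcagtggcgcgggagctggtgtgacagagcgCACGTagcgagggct
Bnip3: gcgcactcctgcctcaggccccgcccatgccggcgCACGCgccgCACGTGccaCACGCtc
Ankrd37: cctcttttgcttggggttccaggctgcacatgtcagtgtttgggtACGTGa

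The Hif1a stretch lies at chr12:73907752-73907811 on the plus strand and the P4ha1 stretch at chr10:59323235-59323294 on the plus strand. The other 4 are on the minus strand, Egln1 at chr8:124949308-124949367, Egln3 at chr12:54204089-54204124, Bnip3 at chr7:138909599-138909658 and Ankrd37 at chr8:45999851-45999901. The ACGTG nearest the start began at position -6 in Ankrd37, -16 in P4ha1, -68 in Egln1, -70 in Hif1a, -107 in Bnip3 and -229 in Egln3. Bnip3 held 5 matches to either motif in its 250 bases before the start, the most of the 9 genes, and 4 of them fall within the printed stretch. In GENCODE gene models, the RefSeq starts of Hif1a, Egln1, Bnip3 and Ankrd37 lie within the gene, downstream of its first annotated base. Among the printed genes, those of Hif1a and Ankrd37 lie furthest inside. Annotated exons cover 17 bases of the Egln1 stretch and 17 of the Ankrd37 stretch. Over all starts listed for a gene, ACGTG was found in the 250 bases before a start for 8 of the 9 genes (88.9%), against 18.5% of the 27025 genes in the promoter table and 25.2% of the 9132 tested genes with an entry. Either motif was found for 9 of 9, against 61.2% of tested genes with an entry. Among 48 other HIF pathway genes with an entry, from the lists used further below, 37.5% had ACGTG and 77.1% had either motif. The 9 genes were chosen as HIF pathway genes, so their shares are a description and no test. The promoters of the 9 genes were also richer in G and C, with a median of 67.6% against 59.6% of bases, and the part of base composition in these shares was not tested. Kdm3a, a histone demethylase, had 1 GCGTG, at position -27 of its first start, and no ACGTG. In Vegfa, which encodes an angiogenic growth factor, no match lay before the first start, and the ACGTG was found at position -211 of a second start that lies within the gene. A match is a string of letters and not a bound site, and among the 1594 genes with an entry whose mean was lower in both CTCFKD cultures the share with ACGTG was 23.8%.

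The first question was how much of each transcript the control and knockdown cells held. The mean level of 8 of the 10 genes was lower in both CTCFKD cultures than in both WT cultures, and no gene of the 10 was higher in both. Over all genes tested, 16.9% were lower in both CTCFKD cultures and 19.9% were higher in both, and among the 8862 genes with a mean of at least 5 TPM, 18.8% were lower in both. The median difference of the 10 genes in log2(mean TPM + 1), CTCFKD minus WT, was -1.10, beside a median of 0.04 over all genes. No single gene passed the test: in limma with Benjamini-Hochberg adjustment over 11980 genes, with 2 cultures per condition, the adjusted p of the 10 genes ran from 0.585 to 0.918, and no gene of the whole table was called lower (0%). At an unadjusted p under 0.05, the same fit gave 6 of the 10 genes (Egln1, P4ha1, Bnip3, Bnip3l, Ankrd37 and Kdm3a), all lower, where 338 genes of the table, or 2.82%, were lower and 574 were higher. With the experiment as a block these numbers were 7 of the 10 genes and 613 genes lower, and the smallest adjusted p of the 10 was 0.198. With so few cultures, 0.333 is the smallest p of an exact permutation test, so that non-overlap of the cultures is a description here. The 10 genes were also chosen with earlier results of these data known. Their counts beside the shares of all genes, here and below, are therefore a description and no test.

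**Figure D1:**
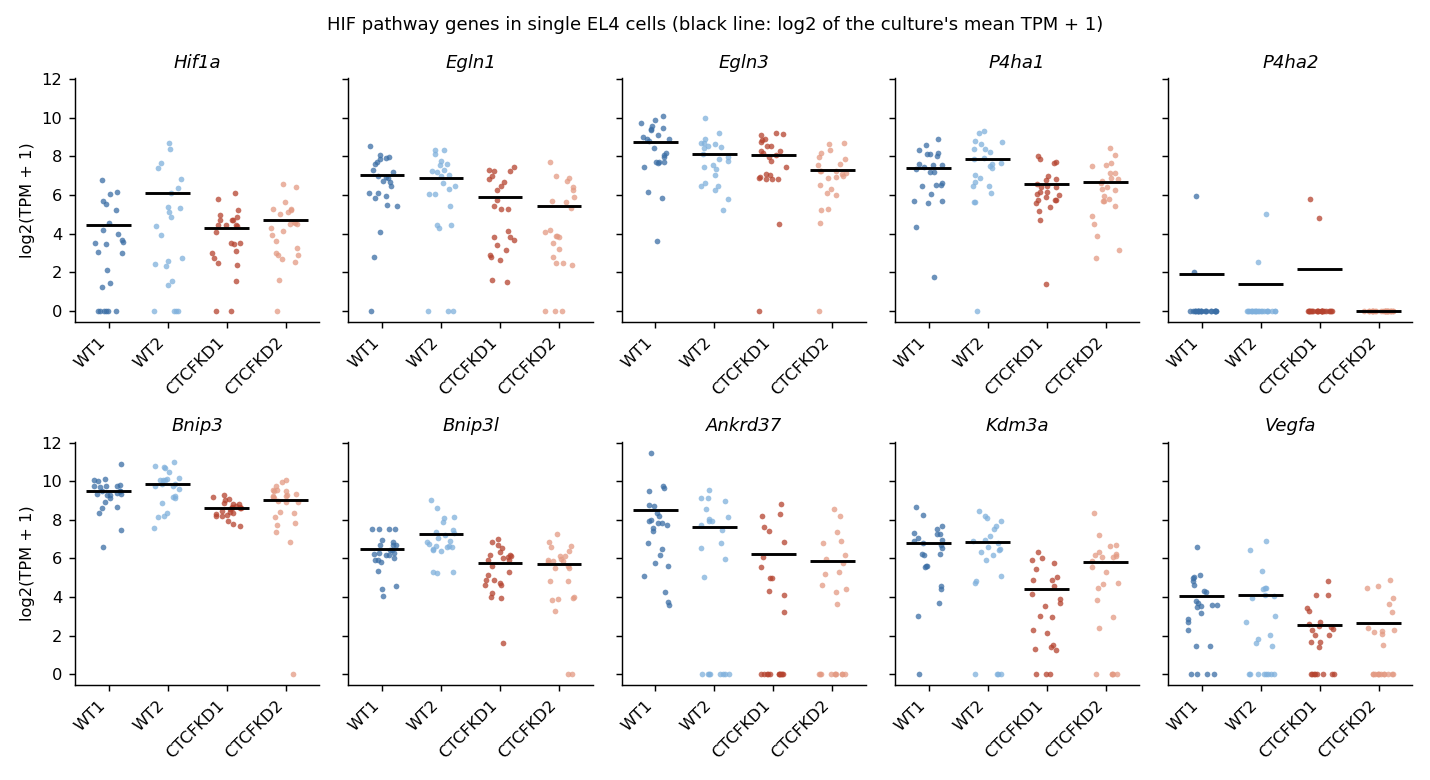
Level of each gene in every kept cell (points; y axis log2(TPM + 1)) by culture on the x axis, with the black line at log2 of the culture's mean TPM + 1. The lines of both CTCFKD cultures lie below those of both WT cultures for 8 genes, all but Hif1a and P4ha2.

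Hif1a encodes the oxygen-regulated alpha subunit. Its mean was 20.6 ± 28.2 TPM (SD over 24 cells) in WT1, 68.9 ± 112.5 (23 cells) in WT2, 18.8 ± 16.6 (24 cells) in CTCFKD1 and 24.7 ± 23.9 (24 cells) in CTCFKD2. The CTCFKD values lay on either side of WT1, so the groups overlapped, and the high WT2 mean set the sign: the difference was -0.78 ± 0.72 (SE) on the log2 scale (limma adjusted p = 0.837), made of -0.13 in the first experiment and -1.44 in the second. Without WT2 it was 0.06. In WT2, 1 cell at 421 TPM carried 26.6% of the summed level. The median cell pointed elsewhere, at 10.2 TPM in WT1, 19.9 in WT2, 17.8 in CTCFKD1 and 19.9 in CTCFKD2. Hif1a was detected in 18 of 24 and 19 of 23 control cells and in 22 of 24 and 23 of 24 knockdown cells, and when every cell was thinned to 80000 reads in 16 of 24, 15 of 23, 20 of 24 and 20 of 23. Of its exonic bases, 8.11% are shared with other annotated genes, an antisense RNA among them, and whether the counting used strand is not given in the sources used here.

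Egln1 and Egln3 encode the oxygen-sensing prolyl hydroxylases, of which Egln1 is the main brake on HIF in most cells. Egln1 had a mean of 128.9 ± 95.3 TPM in WT1, 118.5 ± 99.7 in WT2, 58.5 ± 59.03 in CTCFKD1 and 42.7 ± 52.9 in CTCFKD2 (SD over cells). Both knockdown cultures were thus below both controls, at 45.4% of control in the first experiment and 36.03% in the second, a log2 difference of -1.29 ± 0.40 (limma adjusted p = 0.595). The median cells lay further apart than the means, at 110.7 TPM in WT1, 96.9 in WT2, 37.7 in CTCFKD1 and 14.8 in CTCFKD2. Egln1 had reads in all 24 cells of CTCFKD1 and in 21 of 24 cells of CTCFKD2, against 23 of 24 and 20 of 23 control cells, so detection overlapped. At 80000 reads per cell both knockdown cultures were below both controls, with 95.8% of cells in WT1, 86.96% in WT2, 83.3% in CTCFKD1 and 78.3% in CTCFKD2.

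Egln3 was the second most abundant of the 10 transcripts per length in every culture, by mean TPM. Its mean was 437.2 ± 296.7 TPM in WT1, 280.7 ± 220.2 in WT2, 271.9 ± 176.1 in CTCFKD1 and 157.5 ± 112.5 in CTCFKD2. CTCFKD1 lay just under WT2, the narrowest gap among the 8 genes, and the log2 difference was -0.76 ± 0.41 (limma adjusted p = 0.737), with -0.68 and -0.83 in the experiments. Every control cell had Egln3 reads, the lowest at 11.4 TPM, and 1 cell in each CTCFKD culture had none. The third EGLN gene, Egln2, had 77.5, 19.4, 74.3 and 17.3 TPM in WT1, WT2, CTCFKD1 and CTCFKD2. These means were closer within an experiment than within a condition, and the difference between experiments was not tested. Egln2 had reads in 15, 11, 13 and 9 cells in the same order, and its log2 difference was -0.11 ± 0.92.

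P4ha1 and P4ha2 encode catalytic alpha subunits of the collagen prolyl hydroxylase, and only P4ha1 was expressed at a level that could be compared. P4ha1 had a mean of 171.1 ± 122.6 TPM in WT1, 234.6 ± 174.5 in WT2, 93.5 ± 67.8 in CTCFKD1 and 102.8 ± 84.5 in CTCFKD2. The CTCFKD means were 54.6% and 43.8% of their controls (log2 difference -1.02 ± 0.36, limma adjusted p = 0.610), while P4ha1 was detected in all cells but 1 WT2 cell. P4ha2 was found in 2 cells each of WT1, WT2 and CTCFKD1 and in 0 of 24 cells of CTCFKD2, which allows up to 14.2% of cells with a read at this depth (exact binomial upper limit) and sets no limit on cells that express it. Its reads numbered 23, 9, 25 and 0, and 1 cell held 95.4% of the summed TPM in WT1, so that its log2 difference of -0.56 ± 0.91 (limma adjusted p = 0.918) rests on single cells, and it was 0.52 without CTCFKD2.

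Bnip3 and Bnip3l encode related proteins of the outer mitochondrial membrane that act as receptors for mitophagy. Bnip3 was the most abundant of the 10 genes per length in every culture, with a mean of 718 ± 359 TPM in WT1, 943 ± 511 in WT2, 387 ± 108 in CTCFKD1 and 527 ± 277 in CTCFKD2. The knockdown cultures were below both controls, at 53.9% and 55.9% of control, the closest match between experiments together with Vegfa, and the log2 difference was -0.86 ± 0.32 (limma adjusted p = 0.622). Cells of CTCFKD1 were tightly gathered, from 206 to 630 TPM around a median of 385, where WT1 cells ran from 94.8 to 1880 around 691. The median cell of WT2 held 917 TPM and that of CTCFKD2 573. Over all pairs of 1 knockdown and 1 control cell, the knockdown cell had the lower Bnip3 level in 84.03% of pairs in the first experiment and 75.4% in the second, with ties split evenly. Bnip3 shares 22.3% of its exonic bases with an antisense gene.

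Bnip3l had a mean of 90.1 ± 51.1 TPM in WT1, 155.6 ± 116.6 in WT2, 53.04 ± 33.7 in CTCFKD1 and 50.9 ± 38.1 in CTCFKD2. Its log2 difference was -1.17 ± 0.44 (limma adjusted p = 0.622), and it was larger in the second experiment (-1.59) than in the first (-0.75), where the difference between experiments was not tested. All 47 control cells had Bnip3l reads, at 15.7 TPM or more, and so had all 24 cells of CTCFKD1 and 22 of 24 of CTCFKD2. The knockdown cell was the lower in 71.9% and 86.2% of cell pairs.

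Ankrd37, an ankyrin-repeat protein gene known mostly as a HIF target, showed the largest difference of the 10. Its mean was 361 ± 582 TPM in WT1, 195 ± 223 in WT2, 73.2 ± 122.8 in CTCFKD1 and 58.3 ± 96.4 in CTCFKD2. The CTCFKD means were 20.3% and 29.9% of control, a log2 difference of -2.01 ± 0.43 (limma adjusted p = 0.585). WT1 was the high culture, and 1 of its cells at 2848 TPM made up 32.8% of its summed level, but the median cells kept the order, with 217 and 108 TPM in WT1 and WT2 and 12.5 and 19.2 in CTCFKD1 and CTCFKD2. Ankrd37 was detected in all 24 cells of WT1 and in 15 of 23, 13 of 24 and 14 of 24 cells of WT2, CTCFKD1 and CTCFKD2. Both knockdown shares, 54.2% and 58.3%, lay below the 65.2% of WT2, and in cells thinned to 80000 reads the shares were 91.7% in WT1, 65.2% in WT2, 45.8% in CTCFKD1 and 47.8% in CTCFKD2. In whole reads it stood at an RPM (reads scaled to the total of the culture, without regard to length) of 166 (95% Poisson interval 156 to 176, counting error only) in WT1, 77.4 (70.2 to 85.1) in WT2, 33.4 (28.7 to 38.5) in CTCFKD1 and 25.7 (20.5 to 31.8) in CTCFKD2. Ankrd37 shares 26.4% of its exonic bases with Lrp2bp and Ufsp2 on the opposite strand. Ufsp2 overlapped between the conditions, at 103.6, 146.4, 128.2 and 157.7 TPM in WT1, WT2, CTCFKD1 and CTCFKD2. Lrp2bp was scarce and lower in both CTCFKD cultures, at 2.21, 2.24, 0.0999 and 1.06 TPM in the same order. It had reads in 7, 6, 1 and 3 cells. The part of the shared bases in the Ankrd37 values was not tested.

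Kdm3a encodes an iron-dependent histone demethylase, which uses oxygen as the EGLN enzymes do. It had a mean of 110.9 ± 95.5 TPM in WT1, 113.0 ± 100.4 in WT2, 20.5 ± 23.5 in CTCFKD1 and 56.1 ± 70.8 in CTCFKD2. The controls were alike and both knockdown cultures lower, at 18.5% of control in the first experiment and 49.7% in the second (log2 difference -1.69 ± 0.56, limma adjusted p = 0.610). The median cell held 97.2 and 90.1 TPM in the controls, 11.1 in CTCFKD1 and 42.3 in CTCFKD2. Kdm3a remained detected in most knockdown cells, 21 of 24 and 19 of 24, against 23 of 24 and 19 of 23 control cells. In thinned cells it was found in 18 of 24 and 18 of 23 knockdown cells against 22 of 24 and 19 of 23 control cells.

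Vegfa was low in every culture, with means of 15.7 ± 20.2, 16.3 ± 29.5, 4.91 ± 6.68 and 5.29 ± 8.31 TPM in WT1, WT2, CTCFKD1 and CTCFKD2. The knockdown means were 31.3% and 32.4% of control (log2 difference -1.48 ± 0.81, limma adjusted p = 0.743), on 207, 149, 60 and 29 reads. The median cell was at 10.9 TPM in WT1 but at 3.06 in WT2, about as low as the 3.10 of CTCFKD1, and at 0.945 in CTCFKD2. The cell medians of WT2 and CTCFKD1 thus did not separate as their means did.

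**Figure D2:**
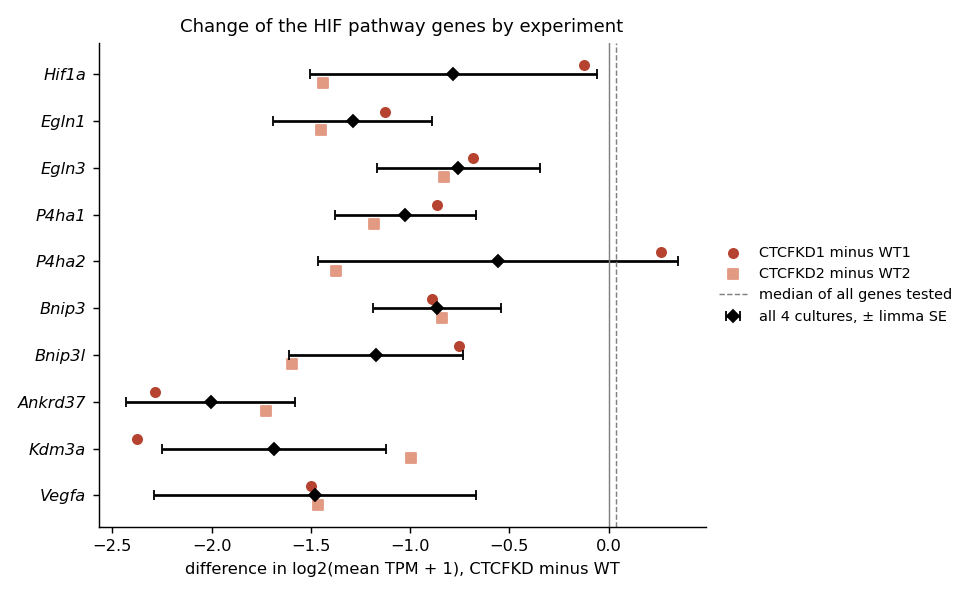
Difference in log2(mean TPM + 1) between CTCFKD and WT (x axis) for each gene (rows), over all 4 cultures with the limma SE (diamonds and bars) and within each experiment (circles and squares). Of the 20 within-experiment values, only that of P4ha2 in the first experiment (0.26) lies above 0, and the dashed line marks the median over all genes, 0.04.

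The order of the levels in TPM, a scale per transcript length, was much the same in the control cultures. Bnip3 stood first and Egln3 second in WT1 and WT2, Ankrd37, P4ha1, Egln1, Bnip3l and Kdm3a formed the middle between 90.1 and 361 TPM, and Hif1a, Vegfa and P4ha2 were the lowest. Within the middle group the order changed between WT1 and WT2, since Ankrd37 led it in WT1 and P4ha1 in WT2. The ratio of the cell-to-cell SD to the mean in this group ran from 0.57 (Bnip3l in WT1) to 1.61 (Ankrd37 in WT1). Whether the means of neighbours in that order differed was not tested. In CTCFKD1, Kdm3a stood at 20.5 TPM, next to Hif1a at 18.8.

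Detection tells in how many cells a transcript was read at all. Averaged over the 10 genes, the share of cells with reads was 85.8% in WT1, 78.7% in WT2, 80.4% in CTCFKD1 and 75.4% in CTCFKD2, a difference of -4.35 percentage points (exact permutation test over 2 against 2 cultures, two-sided p = 0.667). CTCFKD1 lay between the controls. Cells of CTCFKD2 had fewer reads, and once all cells were thinned to 80000 reads, which left out 1 cell of CTCFKD2, the shares were 81.7%, 74.8%, 71.2% and 70.4%, a difference of -7.38 points (exact permutation p = 0.333, the smallest that 2 against 2 can give). The share of cells above 10 TPM differed by -11.3 points (exact permutation p = 0.333). Bnip3, Egln3, P4ha1 and Bnip3l had lower means although they had reads in at least 22 cells of every culture.

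The second question of the study, cell-to-cell variation, was looked at for the same genes. The SD of log2(TPM + 1) over all cells of a condition was larger in CTCFKD for 5 of the 9 genes that met the study's level filter (all but P4ha2), beside 29.4% of the 7843 genes that met it. These 5 were Egln3 (1.35 in WT and 1.88 in CTCFKD), Bnip3 (0.910 and 1.43), Bnip3l (1.02 and 1.57), Kdm3a (2.36 and 2.40) and Ankrd37 (3.26 and 3.27), the last 2 almost level. Only Egln3 and Bnip3l were larger in both CTCFKD cultures than in both WT cultures, where 9.36% of genes were. Without WT1 the 5 became 3. Cells without reads weighed on these values, and the only CTCFKD2 cell without Bnip3 reads was the shallowest, with 41591 reads. Among cells with a level above 0, the SD of Egln3 was 1.47 and 1.18 in WT1 and WT2 and 1.11 and 1.09 in CTCFKD1 and CTCFKD2, and that of Bnip3 was 0.884 and 0.921 against 0.412 and 0.849. In Bnip3l the spread remained wider, 0.942 and 0.977 in the controls against 1.21 and 1.10. Egln1 (1.34 and 1.25 against 1.94 and 1.70) and Kdm3a (1.40 and 1.10 against 1.70 and 1.46) were wider in both knockdown cultures too. Hif1a (1.61 and 2.32 against 1.16 and 1.27) and Vegfa (1.27 and 1.69 against 0.978 and 1.15) were narrower in both, as were Egln3 and Bnip3. Among cells with reads, 3 of the 9 genes were thus wider in both knockdown cultures, beside 3.9% of 7559 genes with at least 3 such cells per culture, and 4 were narrower in both, beside 43.2%.

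The study's own measure, the coefficient of variation (CV, SD divided by mean) on the log2(TPM + 1) scale, with genes called increased when the difference exceeded the mean difference over genes by 1 SD, gave 4 of the 9 genes as increased (Bnip3l, Ankrd37, Kdm3a and Vegfa), beside 7.68% of all genes. It gave none of the 9 as decreased, beside 11.3% of all genes. The mean that this CV divides by was lower in CTCFKD for all 4, and for Vegfa the SD itself was smaller, 1.64 against 2.08. How much of the 4 calls came from the lower mean was not tested. Hif1a had an SD of 2.58 in WT and 1.55 in CTCFKD, and in each CTCFKD culture (1.59 and 1.52) below each WT culture (2.27 and 2.83). A smaller SD in CTCFKD was the common direction, with a median difference of -0.23 over 7843 genes. The share of all genes with such non-overlap is not given here. By the study's rule Hif1a was neither increased nor decreased, with a CV difference of -0.33 beside a mean of -0.28 over genes.

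**Figure D3:**
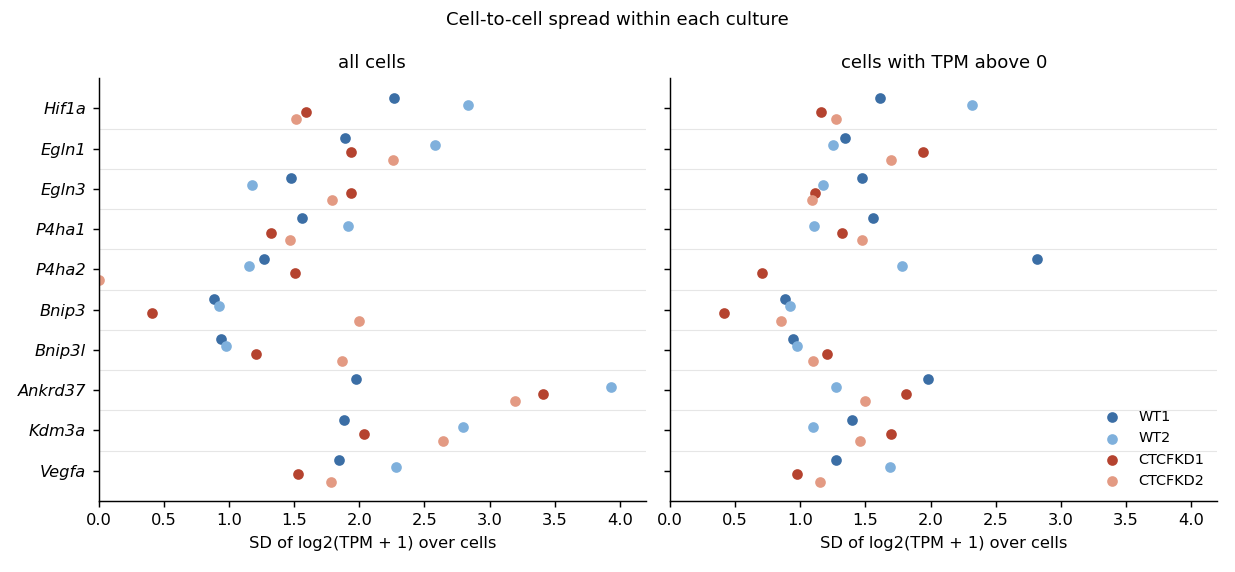
SD of log2(TPM + 1) over the cells of each culture (x axis) for each gene (rows), over all cells (left) and over cells with a level above 0 (right), with 1 point per culture. The CTCFKD2 point of Bnip3 goes from 1.998 to 0.849 between the panels, and the Bnip3l points of both CTCFKD cultures stay to the right of the controls.

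Co-variation over cells asks whether a cell with more of 1 transcript also held more of another. Over the 45 pairs of the 10 genes, the median Spearman correlation was 0.10 over the 24 cells of WT1, 0.03 over the 23 of WT2 and 0.10 over the 24 of CTCFKD1, and it was 0.06 over 24 cells of CTCFKD2 for the 36 pairs without P4ha2. The same median over all pairs of 7752 genes ran from 0.01 to 0.03. The genes thus co-varied only weakly in any culture, and the cells of a culture share a chip, their depth and the number of genes detected. Of the 36 pairs with a value in all cultures, 6 were positive in all 4, beside 9.02% of all gene pairs, and 2 were above 0.25 in all 4, beside 0.08%. These 2 were Egln1 with Bnip3 (0.28 in WT1, 0.62 in WT2, 0.32 in CTCFKD1 and 0.46 in CTCFKD2) and P4ha1 with Ankrd37 (0.36, 0.47, 0.53 and 0.28), the highest of the 45 pairs by their mean.

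Neither of these 2 pairs changed its mean when the number of genes detected was held fixed (0.42 and 0.41). Next among the pairs positive in all 4 cultures came Egln1 with Bnip3l, Bnip3l with Kdm3a and Bnip3 with Bnip3l. Their values were near 0 in WT2 (0.04 to 0.06), and that of Bnip3 with Bnip3l also in WT1 (0.05). The same genes did not all go together: Bnip3 with Kdm3a was at -0.63 in WT1 and at 0.07 to 0.23 in the other cultures. Egln1 with Kdm3a had a mean of 0.07. The sixth was Ankrd37 with Vegfa, with a mean of 0.12. Hif1a mRNA and Bnip3 were negative in all 4 cultures, from -0.06 to -0.30. Egln1 and Egln3, which act on the same substrate, had a mean of -0.03, and Egln3 had no pair that was positive in all cultures.

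**Figure D4:**
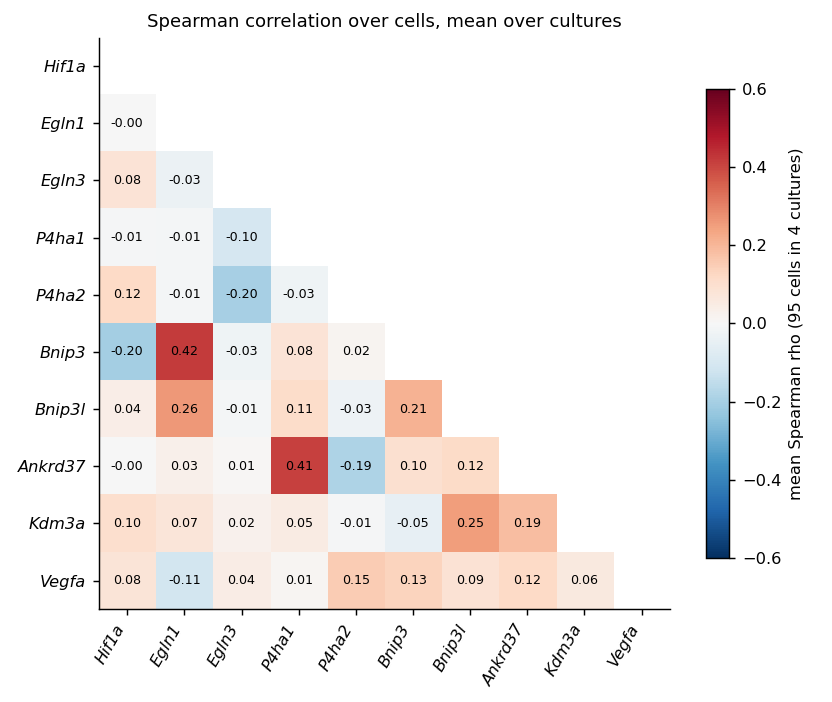
Spearman correlation of log2(TPM + 1) over cells for each pair of genes (rows and columns), averaged over the cultures with a value (3 for pairs with P4ha2, 4 otherwise), in colour from -0.6 to 0.6. Egln1 with Bnip3 (0.42) and P4ha1 with Ankrd37 (0.41) are the strongest cells of the map, and most others lie near 0.

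Ctcf itself gave no steady order with the 10 genes over cells, and only Hif1a had the same sign of correlation with Ctcf in all 4 cultures, -0.22 in WT1, -0.14 in WT2, -0.37 in CTCFKD1 and -0.33 in CTCFKD2. To find genes most like the group, a score per cell was formed as the mean standardised log2(TPM + 1) of the 10 genes, and its Pearson correlation with each of 7743 other genes was taken over 95 cells after culture means were removed. The highest were Spats2 (0.51), the glycolytic aldolase Aldoa (0.44), Map2k3 (0.44), the lactate-transporter chaperone Bsg (0.43), Fggy (0.42), Tmem59 (0.40), Cep85 (0.40) and the glycolytic isomerase Gpi1 (0.40), where the median over genes was 0.06. Aldoa and Gpi1 are in the list of glucose targets used below. The score had a correlation of 0.29 with the number of genes detected, and with that number held fixed the 8 values were 0.36 to 0.46. Within single cultures, Aldoa was at 0.10 and Gpi1 at 0.13 in WT2. Map2k3 was at 0.16 and Fggy at 0.08 in WT1, and Cep85 at 0.11 in CTCFKD1. Over the cultures, Spats2 ran from 0.47 to 0.56, Bsg from 0.37 to 0.58 and Tmem59 from 0.28 to 0.53. The 8 genes did not all share 1 direction of the difference between conditions. Map2k3 had 73.02 and 55.3 TPM in WT1 and WT2 and 250.05 and 180.1 in CTCFKD1 and CTCFKD2. Its log2 difference was 1.72, and that of Fggy was 0.27. The differences of Spats2, Aldoa, Bsg, Tmem59, Cep85 and Gpi1 were negative, at -0.04, -0.51, -0.67, -0.76, -0.23 and -0.66.

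The rest of the pathway was read from lists of 65 other symbols, of which 58 were tested. None passed limma with Benjamini-Hochberg adjustment in either direction. By culture means, 30 of the 58 were lower in both CTCFKD cultures and 2 were higher in both (Hif3a and Stc2), against the 16.9% and 19.9% of all genes given above, and the median log2 difference was -0.45. The lists too were written with earlier results of these data known, so these counts are a description and no test. The lower genes lay mostly among the targets that handle glucose, 13 of 16, and among other targets, 10 of 21, and they were fewer among the genes that sense oxygen and degrade HIF, where Vhl was the only one of 7.

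Among the partners and sensors, Arnt, the subunit that pairs with HIF alpha, had 14.5, 15.7, 11.9 and 10.7 TPM in WT1, WT2, CTCFKD1 and CTCFKD2, a log2 difference of -0.39 ± 0.74. Epas1, the other main alpha subunit, was at or below 0.1995 TPM in every culture and Arnt2 was at 0, so that Hif1a was the alpha subunit with appreciable mRNA beside Hif3a at 3.62 to 9.15 TPM. Vhl, which recognises hydroxylated HIF alpha, had 54.5 and 74.6 TPM in the controls and 42.4 and 23.9 in the knockdown cultures (log2 difference -0.98 ± 0.52, limma adjusted p = 0.729). The other parts of its ligase, Tceb2, Tceb1, Cul2 and Rbx1, had log2 differences of -0.15, -0.10, 0.21 and -0.07. Tceb1 (0.27 and -0.47) and Cul2 (-0.44 and 0.85) differed in sign between the experiments. Hif1an, the asparaginyl hydroxylase of HIF, had 6.11 and 10.8 TPM in the controls against 8.60 and 14.4 in the knockdown cultures.

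Other genes were named by the size of their difference among those whose cultures did not overlap between conditions, so their separation is no result, and Hmox1, for one, was passed over for its overlap (432.8, 155.7, 81.7 and 188.7 TPM in WT1, WT2, CTCFKD1 and CTCFKD2). Plod1, a collagen lysyl hydroxylase, had 74.7 and 106.6 TPM in WT1 and WT2 and 19.5 and 14.4 in CTCFKD1 and CTCFKD2 (log2 difference -2.35 ± 0.51, limma adjusted p = 0.585). Kdm4b, a histone demethylase of the same enzyme family as Kdm3a, had 39.7 and 35.1 TPM against 13.3 and 3.53. Ndrg1, a stress-induced gene much used as a hypoxia marker, had 2062 and 1482 TPM against 622 and 742, and it had reads in every cell. These 3 genes were lower in both experiments. Of the glucose genes, the aldolase Aldoc had 631 and 500 TPM against 225 and 127 (log2 difference -1.72 ± 0.38), the phosphofructokinase Pfkp had 1288 and 1127 against 584 and 533 (-1.11 ± 0.28), and the regulator Pfkfb3 had 11.9 and 6.09 against 4.14 and 1.08 (-1.55 ± 0.95). The rest of the genes named by this rule had log2 differences between -2.02 and -1.03 and were the cyclin Ccng2, the mitophagy kinase Pink1, the MYC antagonist Mxi1, the transcriptional repressor Bhlhe40 and Narf, all with limma adjusted p of 0.585 to 0.779. Pfkfb3 and Pink1 rest on few cells. In WT1, WT2, CTCFKD1 and CTCFKD2, Pfkfb3 had reads in 8, 7, 8 and 3 cells and Pink1 in 9, 3, 6 and 2.

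Not every HIF target was lower in both CTCFKD cultures. Ldha, which makes lactate, had 7034 and 6529 TPM in WT1 and WT2 and 5554 and 6989 in CTCFKD1 and CTCFKD2, so that the groups overlapped. Hk2, the inducible hexokinase, had 721 and 845 against 661 and 830, and the peptide hormone gene Adm had 202 and 197 against 231 and 187, both overlapping too. Ldha, Hk2 and Adm were picked after their values were seen, as targets that overlapped. Stc2, a secreted glycoprotein gene, was the exception on the other side, with 7.38 and 0 TPM in the controls and 18.7 and 7.55 in the knockdown cultures, on 2 of 24 and 0 of 23 control cells against 8 of 24 and 4 of 24 knockdown cells.

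**Figure D5:**
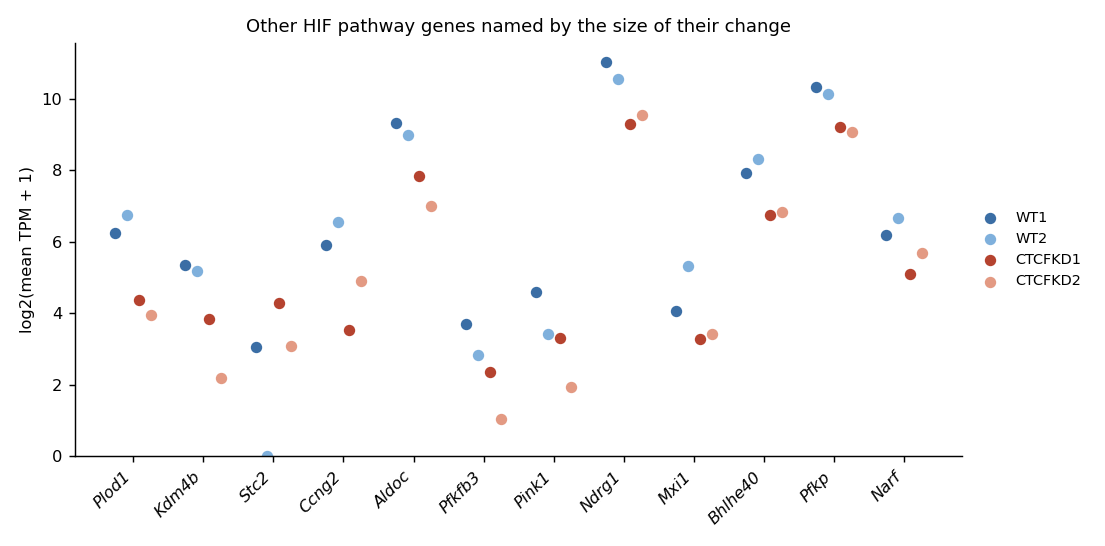
Level of 12 other pathway genes (x axis), the largest differences among genes whose control and knockdown cultures do not overlap, in each culture, as log2(mean TPM + 1) on the y axis, with 1 point per culture. The choice of genes fixes that the points of the conditions separate, and Stc2 is the only one of the 12 with the CTCFKD points on the upper side.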

How the data were processed

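Single-cell RNA-seq libraries of EL4 cells were made on the Fluidigm C1 system, with 96 cells in all. The authors aligned reads to GRCm38 with STAR, kept unique alignments, counted reads per RefSeq gene with HTSeq and deposited TPM values (transcript levels scaled by gene length and by the total of the cell). The deposited TPM values are the only expression data used here. Cells under 3000 detected genes were left out, as in the study's methods. Whole reads per gene and cell were not given and were inferred from the ratios between TPM values. The 1336 genes with a value in 1 cell only were set to 1 read by this method. The inferred reads were used for depth, for RPM, for thinning to 80000 reads per cell and for Poisson intervals. Intervals are at the 95% level and cover counting error only.

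The culture was the replicate, and cells were not. For each culture, log2(mean TPM + 1) was tested for 11980 genes with limma 3.58.1 (R 4.3.3, trended prior) and Benjamini-Hochberg adjustment, without the experiment as a term. The limma p-values and SEs rest on the spread between 2 cultures per condition, with the variance of each gene drawn toward a trend over all genes. The experiment number pairs the cultures, since the study's methods describe 2 rounds of knockdown, and the deviations of WT1 and CTCFKD1 from their condition means had a correlation of 0.18 across 11980 genes. Python 3.11.15 with SciPy 1.17.1 was used for exact tests and correlations. The limma step was tested on simulated data.

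Gene models came from GENCODE and promoters from RefSeq, both on the build of the files. All 10 genes were named. Other pathway genes were named as the 12 with the largest difference among those not overlapping between conditions with a mean of at least 5 TPM, with the subunits and sensors, and the 8 genes most like the score. The genes, lists and rules were chosen with earlier results of these data known. Elob, Eloc and Eno1 were not analysed here under those symbols. Alternatives were other scales, filters and scalings, cells as replicates, and each culture left out.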

Additional observations from a re-analysis of the deposited data

Results flagged for a closer look

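Among Ctcf, the 10 genes and the subunits and sensors of the pathway, 4 genes were higher in 1 CTCFKD culture and lower in the other, each against its own control, which is what drew attention to them. The difference between the experiments was not tested, since each experiment held 1 culture per condition. Ctcf had a log2 difference of -1.85 in the first experiment and 0.27 in the second, which lie 2.12 apart. P4ha2 was 0.26 higher and then 1.38 lower (log2 difference between experiments -1.64), on 0 to 2 cells per culture with reads. Tceb1, an elongin of the VHL ligase, changed by 0.27 and -0.47 (-0.74 between experiments), and Cul2, its cullin, by -0.44 and 0.85 (1.29 between experiments).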

How the results depend on the processing

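The median log2 difference of the 10 genes, -1.10, stayed negative under all 14 alternatives, at -1.38 to -0.94 with a culture left out (the lowest without WT1, the highest without WT2), -1.25 with a pseudocount of 0.1 TPM and -1.20 with all 96 cells. With the experiment as a block (the pairing), 0 of the 10 genes were called, at a smallest adjusted p of 0.198 (limma), and 7 of them and 613 genes lower in all had an unadjusted p under 0.05. The block changed no call, and with a culture left out 1 to 3 of the 10 genes had such a p. The genes lower in both CTCFKD cultures numbered 7 to 9 of 10, and the other pathway genes 20 to 41, where fewer cultures make non-overlap more common (26.6% to 37.9% of all genes with 1 left out). With a culture left out Hif1a ran from -1.63 (without WT1) to 0.064 (without WT2) and P4ha2 from -1.63 (without CTCFKD1) to 0.52 (without CTCFKD2). Hif1a also turned to 0.32 with cell values averaged after the log and 0.33 with cells as replicates. Averaging after the log moved the median of all genes to 0.23 and called 2 genes lower and 44 higher; with cells as replicates, which overstates n, 6 of the 10 genes, 123 genes lower and 1280 higher were called. Detection above 10 TPM differed by -11.3 points, and by -7.92 to -0.78 points over the cells with reads when a culture was left out (the lowest without WT2, the highest without WT1). The median correlation, 0.08 as a mean over cultures, was 0.035 in thinned cells and 0.06 to 0.10 with a culture left out. The 5 of all 10 genes with larger spread in CTCFKD became 8 by the CV of log2(TPM + 1), P4ha2 included, 3 over cells above 0 only (chosen after seeing the data), 2 with all 96 cells, and 3 to 6 with a culture left out (3 without WT1). A filter of 10 cells left P4ha2 without a value. The cause of these shifts was not tested. Depth limits Vegfa and P4ha2 most, at 207 reads per culture or fewer.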
